A study of Mus musculus with 6 samples.

Results

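The genes described here include many that build or regulate the moving core of the sperm tail, with genes of dynein preassembly and other CFAP genes beside them. They are 43 protein-coding genes of the 54532 genes in the deposited table, taken by name: 34 symbols that begin with Cfap (cilia and flagella associated protein) or Drc (dynein regulatory complex) followed by a number, and 9 named subunits, Spag6l, Spag16, Spag17, Spef1, Spef2, Hydin, Gas8, Tcte1 and Iqcg. The rule uses names and no measured value, though the genes were chosen with earlier results of these data known. The study has 6 RNA-seq libraries of whole mouse testis, of which 3 are from 1700052I22Rik-KO testes, where a long non-coding RNA gene was knocked out, and 3 from WT testes. The labels give neither strain nor age, nor which part of the gene was deleted. They also do not say that replicates came from separate animals, so a p-value here reflects only the spread among these libraries, which may be technical. In whole tissue, fewer cells of a type and less RNA per cell cannot be told apart.

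The axoneme of a motile cilium or flagellum is a ring of doublet microtubules around a central pair. Dynein motors slide the doublets, the nexin-dynein regulatory complex links neighbouring doublets and regulates that sliding, and the central apparatus, a set of projections on the central microtubules, acts on the motors through the radial spokes. Many CFAP proteins sit inside the doublet wall or at the base of spokes and dyneins, and loss of several of them in mice or humans gives short, coiled or absent sperm tails. In the testis these genes are transcribed largely in meiotic spermatocytes and round spermatids, before the tail is finished. RFX transcription factors, which bind a sequence called the X-box, are known regulators of motile cilium genes.

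Short stretches with an X-box-like string are shown because they are a sequence feature that the choice of genes did not use. The string searched was GTNNCC followed directly by NNGGNNAC, where N is any base. It was looked for on both strands in RefSeq windows (GRCm38.p6) from 250 bases before to 50 bases after each gene start. Windows were found for 35 of the 43 genes, and 5 of these 35 genes (14.3%) held the string, against 2.16% of all 27025 genes with a window. Unlike the 43, those 27025 genes were not limited to protein-coding genes or to genes expressed in testis, so the shares compare unlike sets. A tighter string, GTTNCC followed directly by NNGGNAAC, whose matches all lie within those of the first, was in 1 of the 35 genes, Cfap298, and in 0.529% of all genes. The match of Spag6l lay after its RefSeq start, and those of Cfap126 and Cfap298, which lie before a RefSeq start, fall inside the deposited gene models at or next to exons of the same gene in GENCODE M21; these 3 are not printed. In Cfap206 and Cfap77 the matched letters are in capitals and each sequence reads 5′ to 3′ on the gene's strand. Both lie before the RefSeq start and outside the deposited gene model, at chr4:34730207-34730254 (minus strand) for Cfap206 and chr2:29055264-29055316 (minus) for Cfap77.
Cfap206: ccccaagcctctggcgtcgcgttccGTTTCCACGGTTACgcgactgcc
Cfap77: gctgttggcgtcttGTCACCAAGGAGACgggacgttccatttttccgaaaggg
A match describes the letters of the window and does not show that a factor binds there.

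The targeted transcript checked the genotype labels. 1700052I22Rik had 0, 0 and 0 reads in the KO libraries and 185, 175 and 218 in the WT libraries. With a floor of 3 counts over the KO group, its level was at least 189-fold lower in KO. Depth was even, at 17635045 to 18117593 counts per library, and 19320 genes passed the low-count filter. All 43 genes passed it. Markers of the germ cells of whole testis were present, with 9 of 9 spermatocyte, 10 of 10 round spermatid and 10 of 10 elongating spermatid genes tested. Of 10 epididymis genes 2 passed the filter, Wfdc10 at 17.7 CPM in KO and 20.1 CPM in WT and Rnase10 at 4.15 CPM in KO and 4.12 CPM in WT. The others had 0 to 7 counts over the 6 libraries, with 0 for Lcn5 and Lcn8 and 7 for Crisp1. Of 12 multiciliated cell genes 8 passed the filter. Deup1 at 287 CPM in KO and 274 CPM in WT and Foxj1 at 64.3 CPM in KO and 78.3 CPM in WT were among them, whereas Mcidas had 9 and Gmnc 20 counts over the 6 libraries.

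**Figure D1:**
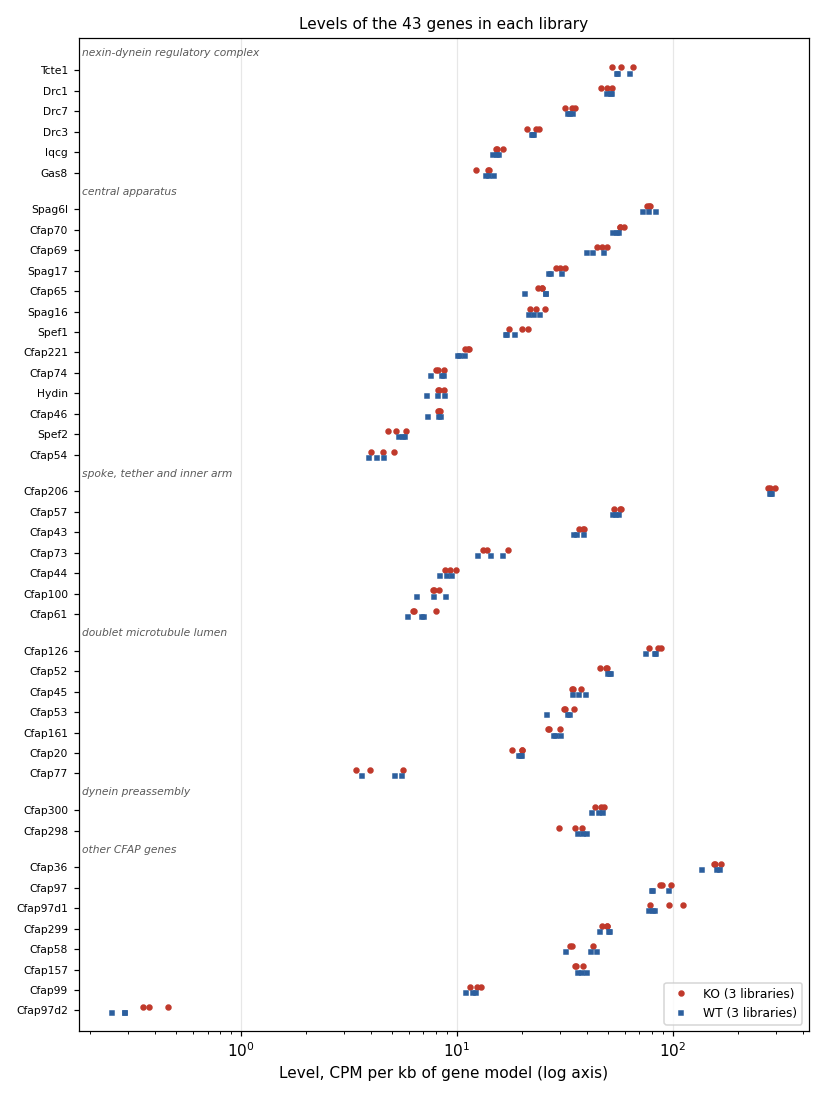
Level of each of the 43 genes in every library, in CPM per kb of gene model on a log axis, grouped by role, with KO libraries as red circles above WT libraries as blue squares. Cfap206 was highest at 285 in both genotypes and Cfap97d2 lowest at 0.396 in KO and 0.277 in WT.

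Most of the set was well expressed. Levels are CPM, read counts scaled to a common library total and normalised with TMM factors. The median gene of the set had 90.6 CPM, against 10.7 CPM for all tested genes. Levels between genes are compared as CPM per kb of the deposited gene length. On that scale Cfap206, which sits at the base of a radial spoke, was the highest at 285 ± 12.2 in KO and 285 ± 3.63 in WT (SD, n = 3 each). Cfap36 followed with 159.7 ± 6.07 in KO and 154 ± 16.1 in WT. Next on the mean of all 6 libraries came Cfap97, a relative of the fly gene hemingway, with 91.3 ± 5.91 in KO and 85.8 ± 8.77 in WT. It overlapped with Cfap97d1, at 94.9 ± 16.5 in KO and 80.4 ± 2.42 in WT. At the other end were Cfap77 with 4.32 ± 1.14 in KO and 4.78 ± 1.001 in WT, and Cfap54 with 4.55 ± 0.556 in KO and 4.26 ± 0.338 in WT. Cfap97d2 stood far below the rest at 0.396 ± 0.058 in KO and 0.277 ± 0.022 in WT. Without Cfap97d2 the levels spanned 64.7-fold. Of the 42 pairs of neighbours in this order, 10 were separate in all 6 libraries, among them Cfap206 from Cfap36 and Cfap36 from Cfap97; the other pairs overlapped. The deposited length of Cfap43 is 9955 bases and its exons in GENCODE M21 cover 7059, so its level per kb depends on the gene model used.

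None of the 43 genes passed the test between KO and WT. Of the 43 genes 0 were called in edgeR (quasi-likelihood test, p-values adjusted by Benjamini-Hochberg over all tested genes), where 0.00518% of tested genes were called, the target alone. The smallest adjusted p in the set was 0.965. At an unadjusted p under 0.05 there was 1 member, Cfap97d1, which was higher in KO, against a background of 4.63% of tested genes (2.41% higher and 2.22% lower in KO). By edgeR's fit 28 of the 43 genes had a log2 fold change above 0, against 49.3% of all tested genes. The median log2 fold change of the set was 0.039, against -0.0025 over all tested genes, while the set's median moved between libraries of the same genotype with an SD of 0.036.

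**Figure D2:**
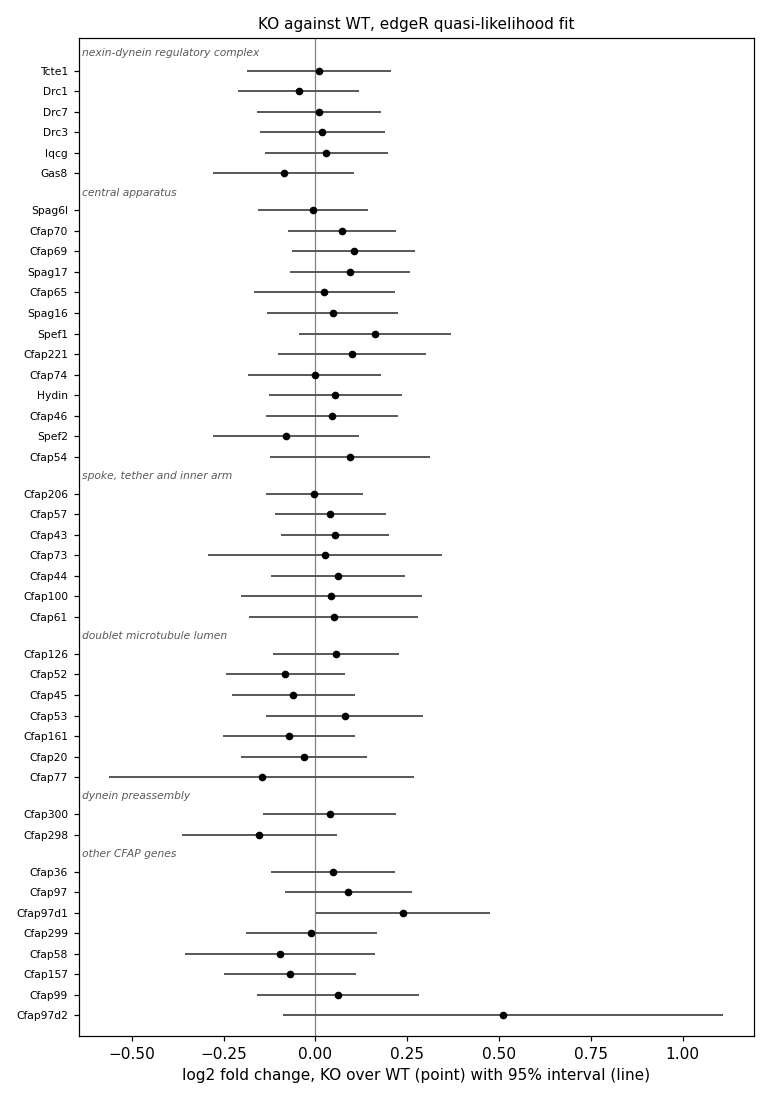
log2 fold change of KO over WT for each gene (point) with its 95% interval from edgeR's fit (line), grouped by role. All intervals but that of Cfap97d1, whose lower end is 0.0017, include 0, and that of Cfap97d2 is the widest of the 43.

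The fit bounds how large a change could be only against the spread among these libraries, which may be technical. Each interval was set per gene, without adjustment for the number of genes. For 42 of the 43 genes the 95% interval of the fold change lay within 1.5-fold in either direction, the exception being Cfap97d2. The interval lay within 1.2-fold for 27 of the 43 genes and for 17.2% of all tested genes. Among all tested genes 61.6% had intervals within 1.5-fold, and among the 9902 tested genes that averaged 10 CPM or more, as 42 of the 43 did, 96.1% had such intervals. The point estimates were small too, with an absolute log2 fold change under 0.1 for 36 genes of the set and for 46.1% of all tested genes. The median level of all tested genes was lower, at 10.7 CPM against 90.6 CPM for the set. No share among genes of a similar level was computed for these estimates or for the 1.2-fold intervals.

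**Figure D3:**
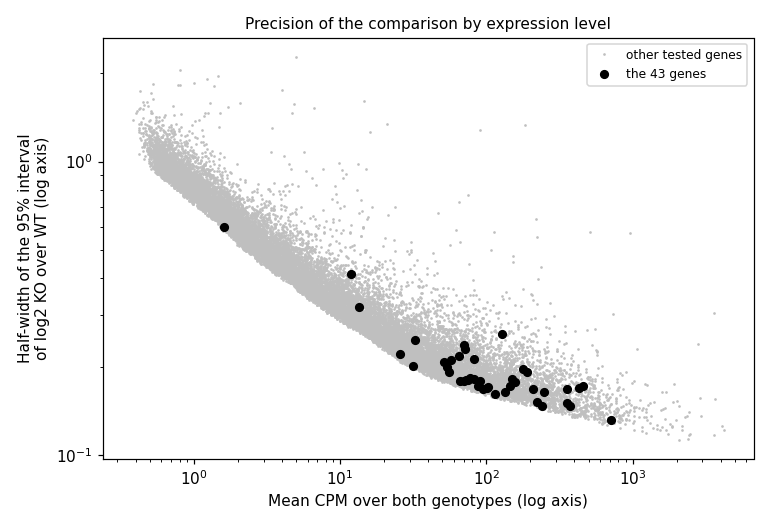
Half-width of the 95% interval of the log2 fold change against mean CPM over both genotypes, both axes log, for the 43 genes (black) and the other tested genes without the target (grey). Intervals narrow as the level rises, and 42 of the 43 genes lie at 10 CPM or more.

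The 6 subunits of the nexin-dynein regulatory complex had log2 fold changes from -0.086 to 0.029. Drc1, a scaffold of the complex on the doublet, had 140.1, 133 and 125 CPM in KO libraries 1 to 3 and 139, 139.6 and 133 CPM in WT libraries 1 to 3. KO and WT libraries overlapped, and the log2 fold change was -0.046 (95% interval -0.21 to 0.12, adjusted p = 0.977).
Gas8, another coiled-coil subunit of that scaffold, had 56.5, 49.2 and 55.7 CPM in KO and 54.8, 59.8 and 56.8 CPM in WT. KO 2 was the lowest library and WT 2 the highest, and the log2 fold change was -0.086 (95% interval -0.28 to 0.11).
Tcte1, whose product (DRC5) is needed for normal sperm motility in mice, had 178, 201 and 160.25 CPM in KO and 194, 171 and 169 CPM in WT. The KO libraries held both its highest and its lowest value, and the log2 fold change was 0.010 (95% interval -0.19 to 0.21).
Drc7, a linker subunit needed for a full-length sperm tail in mice, had 102, 105 and 94.7 CPM in KO and 103, 97.3 and 99.8 CPM in WT, a log2 fold change of 0.010. Drc3, a leucine-rich repeat subunit, had 108, 95.3 and 105 CPM in KO and 101, 100.2 and 103 CPM in WT, a log2 fold change of 0.019. For Iqcg (DRC9), a calmodulin-binding subunit, the values were 94.1, 93.4 and 100.5 CPM in KO and 96.6, 90.7 and 94.9 CPM in WT, a log2 fold change of 0.029. In all 3 the genotypes overlapped. Per kb the complex was uneven: Tcte1 stood at 58.4 ± 6.59 in KO and 57.95 ± 4.593 in WT, Drc1 at 49.5 ± 2.79 in KO and 51.1 ± 1.47 in WT, and Gas8 at 13.4 ± 0.988 in KO and 14.2 ± 0.639 in WT (CPM per kb, SD, n = 3 each).

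Among the 13 central apparatus genes 10 had a log2 fold change above 0, with a median of 0.054 and a range of -0.081 to 0.16. Spag6l, the armadillo-repeat protein that matches PF16 of the alga Chlamydomonas, had the highest level of them in CPM per kb. It had 355, 358 and 346 CPM in KO and 379.9, 332 and 352 CPM in WT, and the KO values fell inside the WT range. The log2 fold change was -0.0067 (95% interval -0.16 to 0.14, adjusted p = 0.995).
Spag16, the WD-repeat counterpart of algal PF20, had 148, 173 and 158 CPM in KO and 165, 154 and 145 CPM in WT (log2 fold change 0.047). Spag17, the counterpart of algal PF6, had 244, 255 and 268 CPM in KO and 259.85, 227 and 232 CPM in WT (log2 fold change 0.095). WT 1 lay inside the KO range of both genes.
Hydin, a very large projection protein whose loss causes hydrocephalus in mice, had 147, 149 and 158 CPM in KO and 159, 131 and 148 CPM in WT. WT 1 was its highest library and WT 2 its lowest, and the log2 fold change was 0.054 (95% interval -0.13 to 0.23).
Spef1, a microtubule-bundling protein of the central pair, had 58.7, 47.8 and 55.3 CPM in KO and 46.8, 46.6 and 51.2 CPM in WT. KO 1 and KO 3 were above all WT libraries and KO 2 was not. Its log2 fold change of 0.16 (95% interval -0.045 to 0.37) did not pass (adjusted p = 0.965).
Spef2, the counterpart of algal CPC1, had 47.4, 57.6 and 51.9 CPM in KO and 55.6, 56.8 and 53.5 CPM in WT (log2 fold change -0.081). KO 1 was lowest and KO 2 highest.

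The remaining central apparatus genes carry CFAP names. Cfap69, needed for a normal sperm tail in mice, had 351, 391 and 371 CPM in KO and 381, 337 and 318 CPM in WT, a log2 fold change of 0.10 (95% interval -0.064 to 0.27). Cfap70, a tetratricopeptide-repeat protein, had 244, 244 and 255 CPM in KO and 242, 227 and 236 CPM in WT, so that the KO libraries lay above the WT libraries. The gap between the groups was narrower than the spread within either of them, and the log2 fold change was 0.074 (95% interval -0.074 to 0.22, adjusted p = 0.967). Cfap65, needed for sperm tail formation in mice, had 186, 194 and 195 CPM in KO and 201, 161 and 202 CPM in WT, a log2 fold change of 0.025. WT 2 was the low library of Cfap65, as it was for 15 of the 43 genes.
Cfap46, Cfap54, Cfap74 and Cfap221 encode parts of the same projection of the central apparatus in Chlamydomonas. Their log2 fold changes were 0.046, 0.094, -0.0015 and 0.10. Cfap221 had 31.7, 32.9 and 33.2 CPM in KO and 29.3, 31.8 and 30.1 CPM in WT, and only KO 1 overlapped the WT range.

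The 7 genes of spokes, tethers and inner dynein arms had log2 fold changes from -0.0025 to 0.062. Cfap206 had 683, 742 and 698 CPM in KO and 719, 707 and 701 CPM in WT. The WT range lay inside the KO range, and its 95% interval of -0.13 to 0.13 on the log2 scale was the narrowest of the set (adjusted p = 0.996).
Cfap43 and Cfap44 encode the tether that holds an inner dynein head to the doublet. Cfap43 had 367, 381 and 384 CPM in KO and 387, 347 and 357 CPM in WT (log2 fold change 0.054). Cfap44 had 74.2, 83.2 and 77.7 CPM in KO and 79.5, 75.7 and 70.1 CPM in WT (log2 fold change 0.062). Both overlapped between genotypes.
Cfap61, part of a calmodulin- and spoke-associated complex, had 67.4, 84.8 and 66.3 CPM in KO and 73.2, 74.9 and 63.0 CPM in WT (log2 fold change 0.050). KO 2 alone stood above the WT range. Cfap57, a WD-repeat protein of an inner arm, had 229, 232 and 215 CPM in KO and 226, 212 and 219 CPM in WT (log2 fold change 0.041). Cfap73 and Cfap100, whose Chlamydomonas counterparts modify the inner arms, had log2 fold changes of 0.026 and 0.044. Cfap73 was scarce, at 13.6 ± 2.04 CPM in KO and 13.3 ± 1.75 CPM in WT (SD, n = 3 each).

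Of the 7 genes whose products line the inside of the doublet microtubules 2 had a log2 fold change above 0, and the median was -0.060, with 0 past the test. Cfap52, a WD-repeat protein, had 113, 115 and 106 CPM in KO and 119, 119 and 116 CPM in WT. Every KO library lay below every WT library, by a small margin, and the log2 fold change was -0.082 (95% interval -0.24 to 0.080, adjusted p = 0.967). In the whole set the genotypes did not overlap for 3 of 43 genes, against 9.32% of all tested genes. Cfap52 was the 1 with KO below WT (background 4.63%), and Cfap70 and Cfap97d2 were the 2 with KO above WT (background 4.69%).
Cfap161 had 84.1, 95.7 and 85.2 CPM in KO and 97.1, 91.5 and 89.8 CPM in WT (log2 fold change -0.072), with KO 1 and KO 3 below the WT range. Cfap45, Cfap20, Cfap53 and Cfap126 (also called Flattop) had log2 fold changes of -0.060, -0.030, 0.080 and 0.056. Cfap77 was the least abundant of these genes and varied most. It had 8.95, 14.7 and 10.4 CPM in KO and 13.5, 14.5 and 9.58 CPM in WT, and KO 1, KO 3 and WT 3 were low. Its log2 fold change of -0.15 had a 95% interval of -0.56 to 0.27.

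Both genes of dynein preassembly, a step in the cytoplasm that precedes the loading of dynein arms into the axoneme, overlapped between genotypes. Cfap298 had 60.2, 47.4 and 56.1 CPM in KO and 57.9, 60.7 and 63.5 CPM in WT. KO 2 was low, and the log2 fold change of -0.15 (95% interval -0.36 to 0.058) had an adjusted p of 0.965. Reads of Cfap298 are uncertain, since 36.0% of its 50-base words also occur in transcripts of other annotated genes, mostly of a gene on the opposite strand, and no source used here gives the strand setting of the counting. Cfap300 had 69.6, 74.2 and 76.8 CPM in KO and 72.2, 75.3 and 67.2 CPM in WT (log2 fold change 0.039).

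**Figure D4:**
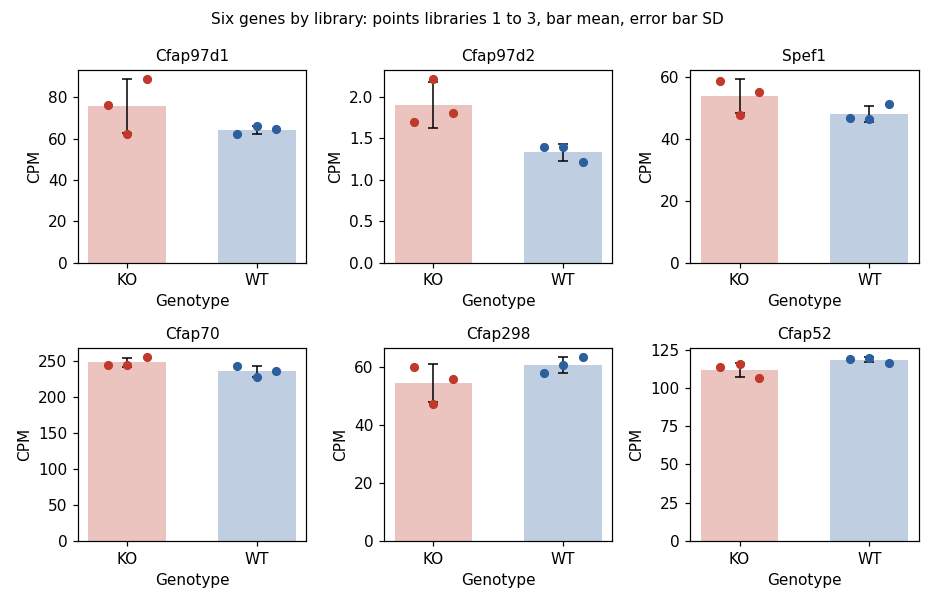
CPM of 6 genes by genotype, KO left of WT, with a point for each library in the order 1 to 3, the mean as a bar from 0 and the SD as an error bar. Cfap97d2 and Cfap70 were higher in every KO library than in any WT library and Cfap52 lower, while Cfap97d1, Spef1 and Cfap298 overlapped through KO 2 or KO 1.

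Among the other CFAP genes were the members with the highest log2 fold changes. Cfap97d1, needed in mice to keep the sperm axoneme intact, had 76.3, 62.3 and 88.5 CPM in KO and 62.1, 66.0 and 64.5 CPM in WT. KO 1 and KO 3 were above the WT range, whereas KO 2 lay inside it. Its log2 fold change was 0.24 (95% interval 0.0017 to 0.47), with an unadjusted p of 0.0486 and an adjusted p of 0.965 in edgeR. Leaving out 1 library at a time gave log2 fold changes between 0.11 and 0.37. Without KO 3, its highest library, the log2 fold change was 0.11 and the unadjusted p in edgeR 0.33. Without KO 2 the unadjusted p was 0.00134, and without KO 1 or any 1 WT library it was 0.0755 to 0.11. The adjusted p without KO 2 was 0.311, the lowest of the alternatives run, whose adjusted p went up to 0.9999.
Cfap97d2 was scarce, with 30, 39 and 32 reads in KO and 25, 25 and 22 reads in WT. Every KO library lay above every WT library, at 1.69, 2.21 and 1.80 CPM in KO and 1.39, 1.39 and 1.21 CPM in WT. The fold change was 1.42, and its 95% interval of 0.941 to 2.16 (adjusted p = 0.965) includes no change.
Cfap58, whose loss gives malformed sperm tails, had 114, 143 and 112 CPM in KO and 148, 139 and 107 CPM in WT (log2 fold change -0.098). Its libraries fell into the same high and low ones as those of Cfap77, with KO 1, KO 3 and WT 3 low. Cfap97 and Cfap36 had log2 fold changes of 0.090 and 0.049, and KO 2 was the highest library of both. Cfap157, which is needed for sperm tail formation in mice, had 68.0, 63.2 and 63.0 CPM in KO and 64.9, 71.4 and 67.4 CPM in WT (log2 fold change -0.069). Cfap99 and Cfap299 had log2 fold changes of 0.061 and -0.011.

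**Figure D5:**
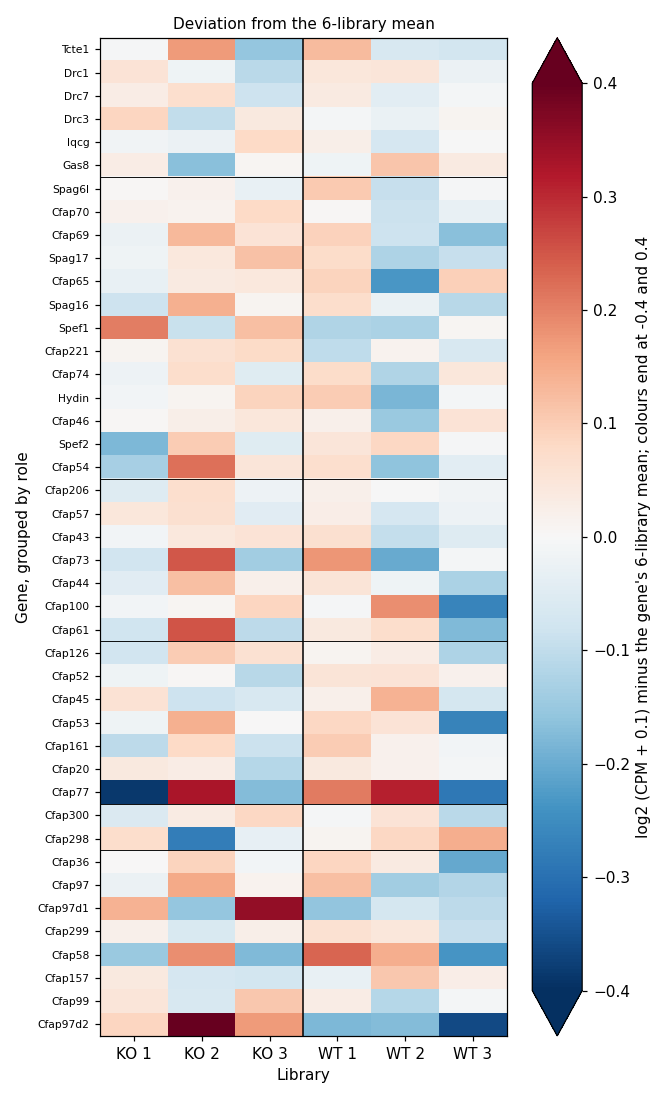
Deviation of log2 (CPM + 0.1) from each gene's 6-library mean, genes in rows grouped by role and libraries in columns, KO left of WT; the colour scale ends at -0.4 and 0.4. Columns KO 2 and WT 1 are mostly above the mean and WT 3 mostly below it, and Cfap77, Cfap97d1 and Cfap97d2 have the strongest colours.

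The set also shifted between libraries of the same genotype. KO 2 was the highest library for 17 of the 43 genes, KO 3 for 7 and WT 1 for 7. Over all tested genes KO 2 was highest for 18.4%, KO 3 for 18.1% and WT 1 for 15.1%. WT 2 was the lowest library for 15 of the 43 genes, against 16.8% of all tested genes, and WT 3 for 12, against 19.1%. Relative to the 6-library mean, 32 genes of the set were higher in KO 2, 34 in WT 1 and 9 in WT 3. The set's median deviation on the log2 scale was -0.012, 0.043 and 0.011 in KO 1 to KO 3 and 0.046, -0.027 and -0.031 in WT 1 to WT 3. Over all tested genes it was 0.0027, 0.0028 and 0.0018 in KO 1 to KO 3 and 0.0070, 0.0086 and 0.0005 in WT 1 to WT 3. Across the 38 other axonemal genes tested the median deviation was -0.00060, 0.060 and -0.023 in KO 1 to KO 3 and 0.045, 0.014 and -0.077 in WT 1 to WT 3, so KO 2 and WT 1 were high and WT 3 low there too. The coefficient of variation over the 6 libraries was under 10% for 36 of the 43 genes, with a median of 6.24%. It was not computed for all tested genes or for genes of a similar level, so it does not set these genes apart.
KO 2 and WT 1 also had the lowest summed CPM of Leydig cell markers. The 8 markers summed to 686, 277 and 476 CPM in KO and 252, 896 and 710.3 CPM in WT. All 8 had a log2 fold change below 0, with a median of -0.33. Cyp17a1 had 277, 65.1 and 145 CPM in KO and 21.1, 358 and 243 CPM in WT. Not every marker was low in WT 1. Insl3 had 55.6, 17.4 and 55.0 CPM in KO and 78.8, 83.8 and 82.6 CPM in WT. Every KO library of Insl3 lay below every WT library, and the log2 fold change was -0.94 (adjusted p = 0.965 in edgeR). The 9 macrophage markers summed to 87.2 to 106 CPM in KO and 105 to 126 CPM in WT, with 9 of 9 below 0. The 9 spermatocyte markers outside the set summed to 2282, 2380.2 and 2362 CPM in KO and 2350.5, 2328 and 2096 CPM in WT, highest in KO 2 and lowest in WT 3. Their median deviation was -0.066, 0.068 and 0.027 in KO 1 to KO 3 and 0.076, 0.030 and -0.050 in WT 1 to WT 3, with KO 2 and WT 1 again highest. Round spermatid markers summed to 1744, 1663 and 1827 CPM in KO and 1589, 1757 and 1600.1 CPM in WT. Their median deviation was -0.012, 0.055 and 0.10 in KO 1 to KO 3. In WT 1 to WT 3 it was -0.054, 0.078 and -0.20, so WT 1 was not high there. The 10 elongating spermatid markers summed to 21226, 18162 and 19839 CPM in KO and 19918, 18579 and 20651 CPM in WT. Their median deviation was 0.055, -0.095 and 0.032 in KO 1 to KO 3, with KO 2 the lowest library. In WT 1 to WT 3 it was 0.021, -0.0087 and -0.049. The part of this variation in the values of the 43 genes was not tested. With KO 2 and WT 1 both left out, 0 of the 43 genes were called, 28 of 43 had a log2 fold change above 0, and the median was 0.047.

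None of a further list of genes of the axoneme or its assembly passed the test either. Of the 41 listed symbols, called other axonemal genes here, 38 were in the table and tested. Of these 38 genes 0 were called, 0 had an unadjusted p under 0.05 in either direction, and 24 had a log2 fold change above 0. Their median was 0.011 and their range -0.19 to 0.20. The smallest p among them was that of Fbxl13, which encodes DRC6, with 134, 172 and 159 CPM in KO and 143, 138 and 125 CPM in WT. KO 1 fell inside the WT range, and the log2 fold change was 0.20 (95% interval -0.0043 to 0.40, adjusted p = 0.965). Spag8 had 62.5, 69.3 and 60.3 CPM in KO and 72.8, 75.6 and 68.4 CPM in WT (log2 fold change -0.17, adjusted p = 0.965). Efhc2 and Nme5 had log2 fold changes of 0.18 and 0.10. Nme5 had 99.1, 101.1 and 97.5 CPM in KO and 94.0, 93.9 and 89.1 CPM in WT. Every KO library of Nme5 lay above every WT library, as for 4.69% of all tested genes (adjusted p = 0.965 in edgeR). Ccdc65, which encodes DRC2, had 272, 269.8 and 242 CPM in KO and 275, 278 and 249 CPM in WT (log2 fold change -0.034). Spag6, the paralog of Spag6l, had 119, 136 and 108 CPM in KO and 128, 151 and 119.6 CPM in WT (log2 fold change -0.13). Only 0.39% of the 50-base words of Spag6l occur in transcripts of any other gene, Spag6 foremost.

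Transcription factors known to regulate motile cilium or spermatid genes were measured as well. Of 12 listed genes 10 were tested and 0 were called. Foxj1, a master regulator of motile cilia, had 66.3, 73.6 and 53.0 CPM in KO and 74.4, 89.4 and 71.1 CPM in WT. KO 1 and KO 3 lay below the WT range, and the log2 fold change was -0.28 with an unadjusted p of 0.0317 and an adjusted p of 0.965 in edgeR. Rfx2, the RFX factor known for its role in spermatid tails in mice, had 426, 448 and 400.4 CPM in KO and 460.2, 423 and 428 CPM in WT (log2 fold change -0.041). Rfx4 was above WT in every KO library, with 87.8, 97.2 and 91.8 CPM in KO and 82.6, 81.4 and 83.2 CPM in WT (log2 fold change 0.16, adjusted p = 0.965). Rfx1 and Rfx3 had log2 fold changes of -0.085 and 0.093.

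Annotation limits a few of the single-gene values. Exons of 17 of the 43 genes overlap an exon of another gene in GENCODE M21. More than 5% of the 50-base words are shared with transcripts of other genes for 9 of the 43, and none for 18. The shared part was largest for Iqcg, where 2916 of 6204 words were shared, most with Lrch3 on the opposite strand. Lrch3 had 838 counts over the 6 libraries and Iqcg 10203. For Tcte1 22.5% of words were shared, mostly with Tmem151b on the opposite strand, which had 48 counts against 19194 for Tcte1. Spag17 shared 13.5% of its words, mostly with Wdr3, which had 1359 counts against 26580 for Spag17.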

How the data were processed

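Per the labels' protocols, testis RNA was extracted with TRIzol, and a VAHTS mRNA-seq v2 kit served for the libraries. HISAT2 2.0.0 and mm10 were used, per the submitters' processing notes. The table the authors deposited holds raw counts for each Ensembl gene, beside symbol, coordinates and gene length. Counting tool, annotation release and strand setting: not given in the sources used here. Of the 43 genes 41 have the same coordinates in GENCODE M21. Genes were kept with filterByExpr (minimum count 10, minimum total 15, smallest group 3) and tested in edgeR 4.0.16 (R 4.3.3; TMM, glmQLFit, glmQLFTest, all 6 libraries, no covariate, adjusted p under 0.05). Intervals are 95% intervals from the fit. CPM are TMM-normalised and errors are SDs. Deviations use log2 (CPM + 0.1). For a group at 0 the floor was 3 counts in all, which covers counting error only.

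The members, lists and naming rule were chosen with earlier results of these data known. Values per library were written out for the genes the rule spells out, all Drc genes and a list of sperm tail genes. They were also given for members with an unadjusted p under 0.05 and, except Cfap97, for the 6 smallest p in each direction. The 3 highest and 3 lowest levels and, of the other axonemal genes, the 4 with the smallest p were named. Others were named, some with values per library, after their values were seen. Listed symbols Iqca1, Pierce1, Pierce2, Cfap47 and Cfap251 were not analysed here under those names. Marker lists of spermatogonia, Sertoli cells and multiciliated cells had median log2 fold changes of -0.13, -0.14 and 0.0070 over 10, 10 and 8 tested genes, and the lists of spermatocytes, round spermatids, elongating spermatids and epididymis 0.016, 0.060, 0.019 and -0.084. Alternatives were other scalings, filters and tools (DESeq2 1.42.0, limma 3.58.1 voom), the replicate number as a block, and leaving out libraries.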

Additional observations from a re-analysis of the deposited data

How the results depend on the processing

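In every alternative run, 0 of the 43 genes and 0 of the 38 other axonemal genes were called. The median log2 fold change of the 43 genes was 0.0082 to 0.066 with 1 library left out, and 23 to 32 genes lay above 0. Over all genes the calls were 50 with no low-count filter, 2 with DESeq2, 1 to 3 with 1 library left out and 9 without WT 1 and KO 2, an alternative chosen after seeing the data. Members with an unadjusted p under 0.05 numbered 0 with library size alone, with a mean of at least 5 CPM, with limma-voom and with the replicate block, and 0 to 2 with 1 library left out; without KO 2 they were Cfap97d1 and Spef1 and without WT 1 Cfap97 and Cfap69. The causes were not tested. Same-numbered libraries did not deviate together (r = -0.173, -0.029 and 0.114), and pairs with different numbers had r from -0.165 to 0.185. This shows no pairing by number, but with 3 libraries per genotype it cannot exclude one. The block called 1 gene over all genes.

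Signs near 0 were not stable. Cfap206 turned to 0.00050 with DESeq2 and its size factors and 0.0030 with upper quartile scaling. With library size alone Tcte1 was -0.0014 and Drc7 -0.0019. Without WT 1 and KO 2, Spag6l was 0.039, Tcte1 -0.0068 and Cfap61 -0.041. Leaving out single libraries, log2 fold changes ranged from -0.033 to 0.024 for Cfap206, -0.053 to 0.045 for Spag6l, -0.073 to 0.085 for Tcte1, -0.016 to 0.052 for Drc7, -0.019 to 0.076 for Drc3, -0.37 to 0.00070 for Cfap77, -0.010 to 0.10 for Spag16, -0.069 to 0.11 for Cfap61, -0.0050 to 0.053 for Iqcg, -0.021 to 0.12 for Hydin, -0.077 to 0.080 for Cfap65 and -0.034 to 0.11 for Cfap36. Of the 43 genes 23 kept their sign in all 6 omissions.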
